A study of Homo sapiens with 192 samples.

Results

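The expression of 9 coding genes of class I antigen presentation was described in 4 CRC cell lines grown in 2D or 3D. The genes were taken from a list of symbols, each matched to 1 Ensembl identifier, and make up 9 of the 58243 genes listed in the deposited counts. They are the heavy chains HLA-B, HLA-C and HLA-E, the light chain B2M, the peptide transporter subunit TAP1, tapasin (TAPBP), the transactivator NLRC5, and the immunoproteasome subunits PSMB8 and PSMB9. All 9 passed the filter on low counts, which 19387 genes passed.

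HT29, LS513, HCT116 and LS174T are established lines from human colorectal tumors. RNA of each line was sequenced from 2D and from 3D cultures, with 3 libraries a group, and the 8 groups were HT29 2D, HT29 3D, LS513 2D, LS513 3D, HCT116 2D, HCT116 3D, LS174T 2D and LS174T 3D. The labels give no treatment for any group, and the comparison asks what goes with the growth condition in each line. Anything else that differed between the 2D and 3D cultures cannot be told apart from it. Per the methods, HCT116 was kept in McCoy medium and the other lines in DMEM, both with serum, so line and medium cannot be told apart between HCT116 and the rest. The duration and format of the 3D cultures used for RNA are not given in the sources used here.

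A class I molecule is a heavy chain paired with B2M around a short peptide, and it shows CD8 T cells a sample of the proteins made inside a cell. The peptides are cut by the proteasome, carried into the endoplasmic reticulum by the TAP transporter and loaded with the help of tapasin. Interferons raise most of these genes together, through sites for IRF proteins and through NLRC5, which has no DNA contact of its own and acts with RFX, CREB/ATF and NF-Y proteins on a composite promoter element of class I genes. HLA-E presents mainly leader peptides of other class I chains and is read by NK-cell receptors. Colorectal tumors can lose class I display by mutation or by low expression.

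The promoters of 5 of these genes are shown to mark letters of elements known to control genes of this pathway. TAP1 and PSMB9 are both shown because they lie head to head. RefSeq windows on GRCh38.p14 were found for 7 of the 9 genes, as 9 windows of 250 bases before and 50 bases after a start site. Only the 250 bases before the start are printed, in the direction of transcription. HLA-E and NLRC5 had no window. Capitals mark 3 motifs searched on both strands. The first was GAAA followed by GAAA after 2 bases of any kind, a core of interferon-stimulated response elements, which 3.57% of all 35116 windows held. The second was TGACG, a CREB/ATF core, held by 24.6%, and the third CCAAT, the NF-Y core, which reads ATTGG on the other strand and was held by 34.6%.
HLA-B, chr6:31357180-31357429, - strand: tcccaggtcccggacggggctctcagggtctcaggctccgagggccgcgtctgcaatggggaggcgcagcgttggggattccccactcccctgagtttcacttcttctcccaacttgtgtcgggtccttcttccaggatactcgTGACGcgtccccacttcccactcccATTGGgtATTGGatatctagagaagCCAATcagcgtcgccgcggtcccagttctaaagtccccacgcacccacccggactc
B2M, chr15:44711267-44711516, + strand: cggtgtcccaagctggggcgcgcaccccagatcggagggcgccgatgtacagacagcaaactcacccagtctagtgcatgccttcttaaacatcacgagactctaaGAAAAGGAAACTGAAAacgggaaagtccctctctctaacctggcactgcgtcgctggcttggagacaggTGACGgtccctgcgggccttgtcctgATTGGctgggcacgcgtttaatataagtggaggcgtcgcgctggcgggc
TAP1, chr6:32853705-32853954, - strand: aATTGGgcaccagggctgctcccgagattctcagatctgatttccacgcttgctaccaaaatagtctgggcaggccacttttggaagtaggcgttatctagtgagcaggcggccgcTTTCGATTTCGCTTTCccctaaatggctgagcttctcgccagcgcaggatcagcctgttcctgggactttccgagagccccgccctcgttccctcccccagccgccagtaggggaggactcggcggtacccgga
PSMB9, chr6:32853942-32854191, + strand: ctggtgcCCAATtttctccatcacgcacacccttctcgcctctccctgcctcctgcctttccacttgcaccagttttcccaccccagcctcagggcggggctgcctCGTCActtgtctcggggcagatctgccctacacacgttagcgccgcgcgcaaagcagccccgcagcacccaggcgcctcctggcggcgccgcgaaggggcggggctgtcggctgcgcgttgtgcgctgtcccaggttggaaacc
TAPBP, chr6:33314079-33314328, - strand: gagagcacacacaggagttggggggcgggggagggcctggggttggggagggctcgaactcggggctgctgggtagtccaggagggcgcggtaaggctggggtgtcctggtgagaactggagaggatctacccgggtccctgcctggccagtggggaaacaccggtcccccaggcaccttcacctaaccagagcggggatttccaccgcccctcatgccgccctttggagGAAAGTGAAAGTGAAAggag

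In HLA-B, TGACG began 106 bases before the start and ATTGG began 81 bases before it. The same pair stood 105 and 80 bases before the start of HLA-C, and 75 and 49 bases before that of B2M. A spacing of 25 or 26 bases between the first bases of TGACG and ATTGG, in that order on the transcribed direction, was chosen after these matches were seen. It occurred in 27 of the 35116 windows (0.0769%), of which 3 belonged to HLA-B, HLA-C and B2M. The spaced GAAA pair was absent from the windows of HLA-B, HLA-C and PSMB9 and from the other windows of TAP1 and PSMB8. It occurred as overlapping matches, beginning 144 and 138 bases before the start in B2M, 134 and 128 bases before it in TAP1, and 20 and 14 bases before it in TAPBP. In PSMB8 it occurred once, 4 bases before the start of 1 of its windows, and ran across the start. The matches in TAP1 lie between the starts of TAP1 and PSMB9, outside the window of PSMB9. GAAA repeated after 1 base, found in 3.12% of windows, occurred in none of the 9. These matches describe letters within the windows and are not evidence that a factor binds there. The search asked for exact copies at set spacings, so an absence does not show that a window lacks an interferon response element.

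By position, 7 of the 9 genes lie in the major histocompatibility complex on chromosome 6 of GRCh38. In GENCODE 29, TAP1 (ENSG00000168394) spans chr6:32845209-32853978 on the minus strand. PSMB9 (ENSG00000240065) spans chr6:32844136-32859585 on the plus strand, because its annotation includes transcripts that cross the TAP1 gene, and PSMB8 (ENSG00000204264) spans chr6:32840717-32844703 on the minus strand. B2M (ENSG00000166710) is at chr15:44711487-44718877 and NLRC5 (ENSG00000140853) at chr16:56989485-57083531, both on the plus strand. HLA-E (ENSG00000204592) is at chr6:30489467-30494205 on the plus strand, and HLA-C (ENSG00000204525) at chr6:31268749-31272130 and TAPBP (ENSG00000231925) at chr6:33299694-33314387 on the minus strand. HLA-B (ENSG00000234745) is annotated at chr6:31269491-31357188 on the minus strand, with a transcript that reaches into HLA-C, and shares 1.15% of its exonic bases with it and 17.8% with AL671883.2 on the opposite strand.

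The libraries held 18723942 to 34277421 counts, with a median of 30777613, and levels are given as CPM, counts relative to library size, on the TMM scale. Differences are log2 of 3D over 2D, with the standard error and the adjusted p of edgeR's quasi-likelihood test over all 19387 genes, called at an adjusted p under 0.05. The labels do not say that the 3 libraries of a group came from separate cultures, so p-values measure the spread between these libraries, which may be technical. An exact permutation test of 3 libraries against 3 cannot go below p = 0.1. Of 11 colonic epithelium markers, all were above 3 counts in every library of HT29, LS513 and LS174T, against 8 in HCT116 2D and 9 in HCT116 3D, where CDX1 and TFF3 were at 0. LS174T 3D replicate 2 stood apart from the other 2 libraries of its group, holding the most of 7 of the 9 genes and the least NLRC5 and TAPBP, and results that rest on it are also given without it.

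Growth in 3D went with higher expression of all 9 genes in HCT116 and of 8 genes in HT29, whereas 3 genes were called higher in LS513 and 4 in LS174T. In HCT116, 9 of 9 genes were called higher, where 16.8% of all tested genes were higher and 12.3% lower. In HT29, 8 of 9 were called higher, TAPBP being the exception, where 21.1% of genes were higher and 19.6% lower. In LS513, 3 of 9 were called higher (HLA-E, B2M and TAPBP), against 13.7% higher and 9.90% lower over all genes. In LS174T, 4 of 9 were called higher (HLA-B, HLA-C, HLA-E and B2M) and 1 lower (NLRC5), against 13.1% and 9.15%. Without LS174T 3D replicate 2, 2 genes were called higher in that line and 0 lower, and without LS513 3D replicate 2, 1 was called higher in LS513. The median log2 fold change of the 9 genes was 1.22 in HCT116, 0.91 in HT29, 0.48 in LS174T and 0.33 in LS513, beside a median over all tested genes of 0.011, 0, 0.016 and 0. HLA-E and B2M were the genes called higher in all 4 lines. In bulk RNA, more cells with a transcript and more transcript per cell cannot be told apart.

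**Figure D1:**
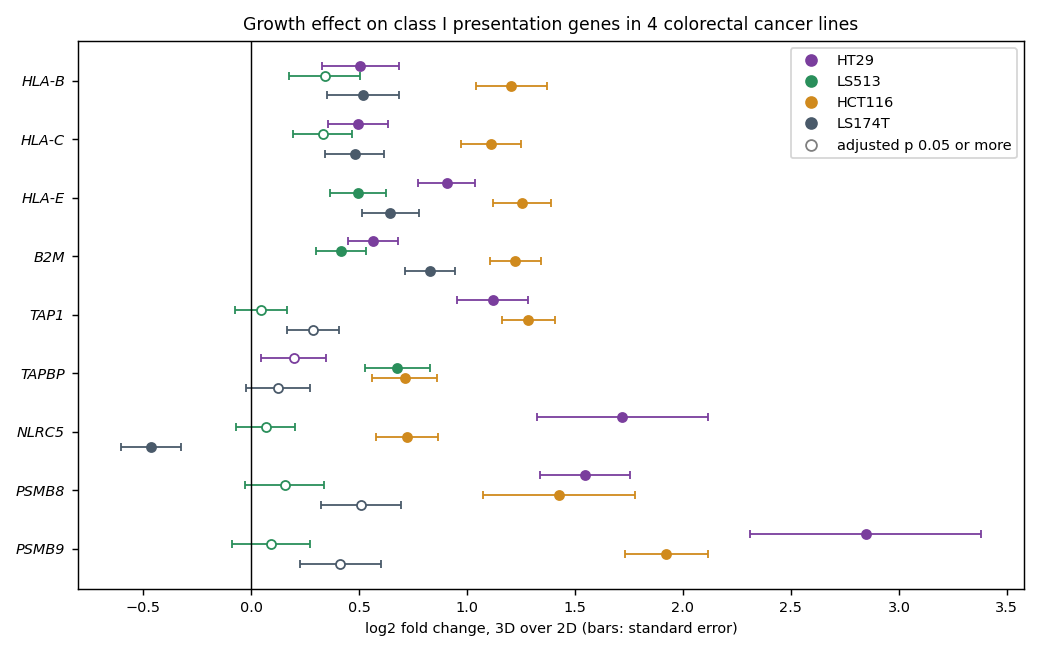
Log2 fold change of 3D over 2D for each of the 9 genes (rows) in 4 lines (colours), with standard error bars; open points have an adjusted p of 0.05 or more. HCT116 points lie to the right of 0 for every gene, from 0.71 for TAPBP to 1.92 for PSMB9, and NLRC5 in LS174T lies at -0.46.

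The heavy chain HLA-B, one of the classical peptide-presenting chains, had the widest spread of levels of the 3 heavy chains. Alignment to the reference alleles can lower HLA-B counts by line. In HCT116 its level was 246, 206 and 298 CPM in the 2D libraries and 699, 579 and 453 CPM in the 3D libraries. No 2D library reached a 3D library, and the log2 fold change was 1.21 ± 0.17 (adjusted p = 1.1e-05). In HT29 the libraries held 14.0, 13.4 and 14.7 CPM in 2D and 21.3, 17.1 and 21.3 CPM in 3D, again without overlap, with a log2 fold change of 0.51 ± 0.18 (adjusted p = 0.026). That call was lost when 1 of 3 HT29 libraries was left out (2D replicate 2, 3D replicate 1 or 3D replicate 4), at adjusted p between 0.055 and 0.065. In LS174T the 2D libraries held 66.1, 55.2 and 53.2 CPM and the 3D libraries 75.8, 107 and 67.5 CPM, the highest being replicate 2. The log2 fold change there was 0.52 ± 0.17 (adjusted p = 0.028), and without 3D replicate 2 it was 0.31 (adjusted p = 0.23). The call was also lost without LS174T 2D replicate 2 (0.48, adjusted p = 0.092) or 2D replicate 3 (0.46, adjusted p = 0.11). In LS513, where the level was highest, the 2D libraries held 1041 to 1109 CPM and the 3D libraries 1130 to 1510 CPM, a log2 fold change of 0.34 ± 0.16 that did not pass (adjusted p = 0.14).

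HLA-C, a classical chain that is also a ligand of NK-cell receptors, was also called higher in HCT116, HT29 and LS174T. In HCT116 the 2D libraries held 346, 310 and 406 CPM and the 3D libraries 832, 765 and 700 CPM. All 3 libraries in 3D were above all 3 in 2D, with a log2 fold change of 1.11 ± 0.14 (adjusted p = 2.9e-06). In HT29 the libraries held 60.7, 56.3 and 63.2 CPM in 2D and 90.6, 78.0 and 85.4 CPM in 3D, which did not overlap (log2 fold change 0.50 ± 0.14, adjusted p = 0.0065). LS174T went from 202, 185 and 181 CPM to 238, 337 and 217 CPM, with replicate 2 again the highest of the 3D libraries (log2 fold change 0.48 ± 0.14, adjusted p = 0.015). Without that library the log2 fold change was 0.28 (adjusted p = 0.15), and the call was also lost without LS174T 2D replicate 2 (0.46, adjusted p = 0.053) or 2D replicate 3 (0.45, adjusted p = 0.061). In LS513, 608 to 657 CPM in 2D overlapped with 649 to 902 CPM in 3D (log2 fold change 0.33 ± 0.14, adjusted p = 0.082), and without 3D replicate 3 the log2 fold change was 0.46 (adjusted p = 0.015). It also passed in LS513 without LS174T 3D replicate 2 (0.33, adjusted p = 0.023).

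HLA-E, the non-classical chain, was called higher in all 4 lines. HT29 held 83.7, 79.2 and 78.6 CPM in 2D and 169, 141 and 143 CPM in 3D. The growth conditions lay far apart, with a log2 fold change of 0.91 ± 0.13 (adjusted p = 1.4e-05). HLA-B and HLA-C had lower estimates in the same line, a difference that was not tested. HCT116 held 89.6, 95.7 and 114 CPM in 2D and 270, 236 and 208 CPM in 3D (log2 fold change 1.26 ± 0.13, adjusted p = 2.9e-07). LS513 held 276, 252 and 267 CPM in 2D and 387, 421 and 311 CPM in 3D (log2 fold change 0.50 ± 0.13, adjusted p = 0.0074). LS174T held 94.5, 96.0 and 101 CPM in 2D and 139, 189 and 127 CPM in 3D (log2 fold change 0.65 ± 0.13, adjusted p = 0.0014). The 3D libraries lay above the 2D libraries in each line. In LS513 the call was lost without 3D replicate 2 (log2 fold change 0.39, adjusted p = 0.066).

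B2M, the light chain that every class I heavy chain needs for folding and surface display, was also called higher in all 4 lines. HCT116, the line in which it was lowest in 2D, held 212, 209 and 245 CPM in 2D and 591, 505 and 460 CPM in 3D. This was a log2 fold change of 1.22 ± 0.12 (adjusted p = 6.7e-08). LS174T held 271, 306 and 313 CPM in 2D and 469, 656 and 455 CPM in 3D (log2 fold change 0.83 ± 0.12, adjusted p = 2.8e-05). HT29 held 274, 278 and 295 CPM in 2D and 411, 422 and 420 CPM in 3D, the tightest of these groups (log2 fold change 0.57 ± 0.12, adjusted p = 0.00052). LS513 held 1023, 1007 and 946 CPM in 2D and 1303, 1445 and 1229 CPM in 3D (log2 fold change 0.42 ± 0.12, adjusted p = 0.01). No 2D library overlapped a 3D library of its line. In LS513 the call was lost without 3D replicate 2 (log2 fold change 0.35, adjusted p = 0.068).

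**Figure D2:**
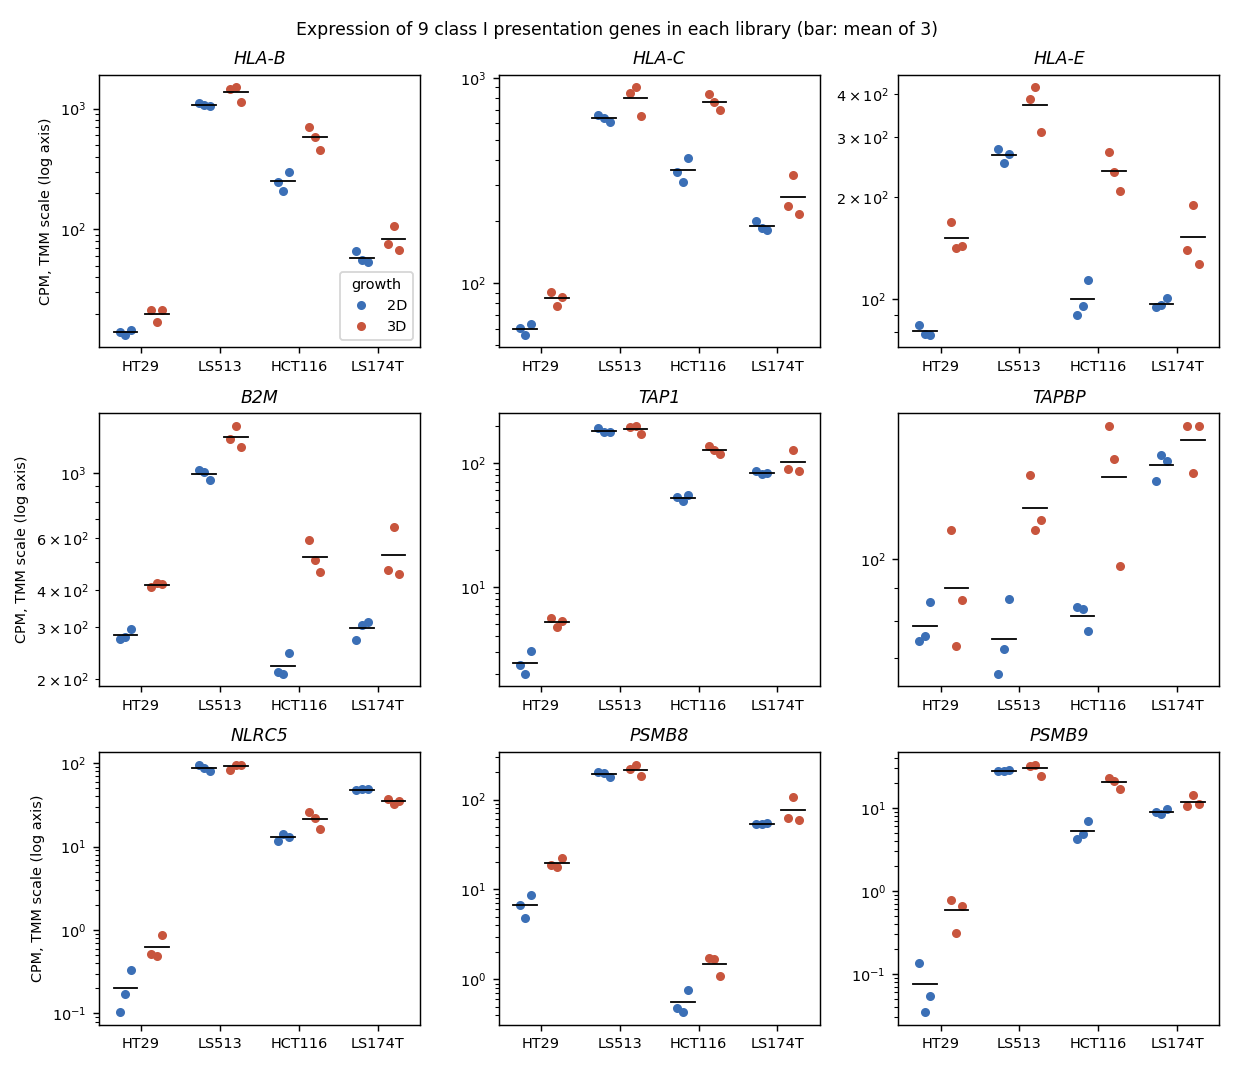
CPM on the TMM scale (log axis, a different range in each panel) of each of the 9 genes in the 24 libraries, by line and growth condition, with a bar at the mean of 3 libraries. The HT29 libraries sit below the other lines for TAP1, NLRC5 and PSMB9, and the HCT116 libraries sit lowest for PSMB8.

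TAP1, a subunit of the transporter that brings peptides into the endoplasmic reticulum, rose in HT29 and HCT116 and was near level in LS513. In HT29 the libraries held 2.33, 2.00 and 3.01 CPM in 2D and 5.58, 4.70 and 5.33 CPM in 3D. In HCT116 they held 52.7, 49.4 and 54.8 CPM in 2D and 137, 127 and 118 CPM in 3D. The groups did not overlap in either line, and the log2 fold changes were 1.12 ± 0.16 in HT29 (adjusted p = 1.4e-05) and 1.28 ± 0.12 in HCT116 (adjusted p = 5.8e-08). LS513 held 177 to 192 CPM in 2D and 171 to 199 CPM in 3D, which overlapped, and the 95% interval of the log2 fold change ran from -0.20 to 0.29. LS174T held 80.7 to 85.2 CPM in 2D and 89.5, 128 and 86.4 CPM in 3D (log2 fold change 0.29 ± 0.12, adjusted p = 0.087). Without 3D replicate 2 the log2 fold change was 0.09 (adjusted p = 0.6), and without 3D replicate 3 it was 0.39 and passed (adjusted p = 0.019). TAP1 shares 9.49% of its exonic bases with PSMB8-AS1 on the opposite strand. Its partner TAP2, which is read from the same stretch of chromosome 6, passed in HCT116 alone (log2 fold change 0.51, adjusted p = 0.00011) and was -0.14 in HT29 (adjusted p = 0.22). TAP2 shares 32.3% of its exonic bases with AL669918.1 on its own strand.

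TAPBP, which encodes tapasin, the chaperone that tethers empty class I molecules to the transporter, had the flattest levels of the 9 genes. Its group means lay between 75.1 CPM in LS513 2D and 153 CPM in LS174T 3D. LS513 held 66.3, 72.5 and 86.5 CPM in 2D and 135, 111 and 115 CPM in 3D (log2 fold change 0.68 ± 0.15, adjusted p = 0.0021). HCT116 held 84.2, 83.5 and 77.2 CPM in 2D and 161, 143 and 97.5 CPM in 3D (log2 fold change 0.71 ± 0.15, adjusted p = 0.0011). Neither line showed overlap between growth conditions. In HT29 the 2D libraries at 74.6 to 85.8 CPM fell within the range of the 3D libraries at 73.1 to 111 CPM (log2 fold change 0.20 ± 0.15, adjusted p = 0.32). In LS174T 132 to 145 CPM in 2D overlapped with 136 to 161 CPM in 3D (log2 fold change 0.13 ± 0.15, adjusted p = 0.59), and without 3D replicate 2 the log2 fold change was 0.21 (adjusted p = 0.47).

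NLRC5, the transactivator of class I genes, was the gene whose direction differed between lines. In LS174T the 2D libraries held 47.9, 48.6 and 48.5 CPM and the 3D libraries 37.0, 32.4 and 35.6 CPM. Every 3D library was below every 2D library, and the level fell by 0.46 ± 0.14 on the log2 scale (adjusted p = 0.02). The estimate stayed between -0.51 and -0.40 with any 1 library left out, but the call was lost without LS174T 2D replicate 1, 2 or 3 or 3D replicate 2 (adjusted p between 0.051 and 0.075). In HCT116 NLRC5 rose from 11.7, 14.1 and 13.0 CPM to 25.7, 22.3 and 16.3 CPM, without overlap (log2 fold change 0.72 ± 0.14, adjusted p = 0.00062). LS513 held 79.8 to 95.4 CPM in 2D and 83.5 to 96.2 CPM in 3D, with a 95% interval of the log2 fold change from -0.21 to 0.35.

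In HT29 NLRC5 was close to the limit of detection, taken as 3 counts in a library. The 2D libraries held 3, 5 and 6 counts (0.103, 0.172 and 0.329 CPM) and the 3D libraries 17, 14 and 24 counts (0.513, 0.484 and 0.871 CPM). Pooled over libraries, 14 counts in 2D against 55 in 3D gave a ratio of 3.35, with an exact 95% interval of 1.84 to 6.52 that covers counting error only. The groups did not overlap, and the fitted log2 fold change was 1.72 ± 0.40 (adjusted p = 0.0014). Even in 3D, HT29 held less NLRC5 (0.623 ± 0.215 CPM, SD, n = 3) than HCT116 did in 2D (13.0 ± 1.22 CPM, adjusted p = 4e-15).

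PSMB8, the immunoproteasome subunit that takes the place of PSMB5, was abundant in LS513 and nearly absent in HCT116. HCT116 held 16, 15 and 24 counts in 2D (0.483, 0.431 and 0.770 CPM) and 52, 51 and 33 counts in 3D (1.73, 1.67 and 1.10 CPM). Pooled, 55 counts in 2D against 136 in 3D gave a ratio of 2.71 with an exact 95% interval of 1.96 to 3.77, and the log2 fold change was 1.42 ± 0.35 (adjusted p = 0.0039). HT29 held 6.79, 4.78 and 8.77 CPM in 2D and 18.6, 17.6 and 22.3 CPM in 3D (log2 fold change 1.55 ± 0.21, adjusted p = 5.7e-06). The growth conditions did not overlap in either line. LS513 held 180 to 202 CPM in 2D and 183 to 244 CPM in 3D, which overlapped (log2 fold change 0.16 ± 0.18, adjusted p = 0.6). LS174T held 53.6, 53.6 and 54.4 CPM in 2D and 63.1, 107 and 59.6 CPM in 3D, with replicate 2 far above the other 3D libraries. Its log2 fold change of 0.51 ± 0.19 lay beside the threshold (adjusted p = 0.053), and without that library it was 0.20 (adjusted p = 0.46). It passed without LS174T 3D replicate 1 (0.63, adjusted p = 0.033) or 3D replicate 3 (0.66, adjusted p = 0.012), and also at 0.51 without any 1 of 5 libraries of other lines (HT29 2D replicate 2 or 3, LS513 3D replicate 3, HCT116 2D replicate 3 or 3D replicate 3). PSMB8 shares 20.6% of its exonic bases with PSMB8-AS1 and PSMB9 on the opposite strand. The strand setting of the counting is not stated, so for PSMB8, PSMB9, TAP1 and HLA-B some counts may belong to genes of the opposite strand.

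PSMB9, which replaces PSMB6 in the immunoproteasome and lies head to head with TAP1, showed the highest fold changes in HT29 and HCT116 among the 9 genes. HCT116 held 4.17, 4.89 and 6.93 CPM in 2D and 22.7, 21.1 and 16.8 CPM in 3D, without overlap (log2 fold change 1.92 ± 0.19, adjusted p = 1.4e-07). In HT29 the 2D libraries held 4, 1 and 1 counts, at or under the limit of detection in 2 of 3, and the 3D libraries held 26, 9 and 18 counts. Pooled, 6 counts in 2D against 53 in 3D gave a ratio of 7.53 with an exact 95% interval of 3.24 to 21.4. The fitted log2 fold change of 2.85 ± 0.54 (adjusted p = 0.00022) ranged from 2.48 to 3.73 with 1 library left out, so its size is loosely set. LS513 held 27.6 to 28.7 CPM in 2D and 24.5 to 33.1 CPM in 3D, which overlapped (log2 fold change 0.09 ± 0.18, adjusted p = 0.79). LS174T held 8.33 to 9.60 CPM in 2D and 10.4 to 14.3 CPM in 3D (log2 fold change 0.41 ± 0.19, adjusted p = 0.11), and without 3D replicate 2 the log2 fold change was 0.27 (adjusted p = 0.4). PSMB9 shares 5.66% of its exonic bases with PSMB8-AS1 on its own strand and 4.52% with PSMB8 on the opposite strand.

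The size of the growth effect differed between lines for 8 of the 9 genes (edgeR, omnibus test over 4 lines), where 17.1% of all tested genes did. The adjusted p was 2.4e-05 for TAP1, 3e-05 for PSMB9, 0.00016 for NLRC5, 0.0031 for PSMB8, 0.0046 for B2M, 0.02 for HLA-E, 0.021 for HLA-C and 0.037 for HLA-B. TAPBP did not pass (adjusted p = 0.078). The count was 5 when HCT116 2D replicate 1, HCT116 2D replicate 2 or HCT116 3D replicate 1 was left out. Pair by pair, LS513 and HCT116 differed for 6 of 9 genes (4.34% of all tested genes), HT29 and LS513 for 4 (12.1%), HT29 and LS174T for 4 (6.65%) and HCT116 and LS174T for 3 (4.75%). HT29 and HCT116 differed for B2M alone (7.76% of all genes), with a difference of -0.66 ± 0.16 between HT29 and HCT116 (adjusted p = 0.012). LS513 and LS174T differed for none of the 9 by edgeR (3.62% of all genes), with 3 at an unadjusted p under 0.05. No other tool was run on these differences.

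The genes that separated the lines were not the same in each pair. Between HT29 and LS513, and between HT29 and LS174T, they were TAP1, NLRC5, PSMB8 and PSMB9, and none of the heavy chains or B2M. For TAP1 the effect in HT29 exceeded that in LS513 by 1.07 ± 0.20 (adjusted p = 8e-04), while for HLA-B the difference was 0.17 ± 0.24 (adjusted p = 0.76). For NLRC5 the effect in HT29 exceeded that in LS174T by 2.18 ± 0.42 (adjusted p = 0.0019). Between LS513 and HCT116, the 6 genes were HLA-B, HLA-C, HLA-E, B2M, TAP1 and PSMB9. For B2M the difference was -0.81 ± 0.16 (adjusted p = 0.0042) and for PSMB9 it was -1.83 ± 0.26 (adjusted p = 0.00011), LS513 being the lower. Between HCT116 and LS174T, TAP1, NLRC5 and PSMB9 passed, with NLRC5 differing by 1.19 ± 0.20 (adjusted p = 0.00054).

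The lines also differed in their levels, and the size of these differences was not tested against that of the growth effects. In 2D alone all 9 genes differed between the 4 lines, near the share of 91.7% over all tested genes. The adjusted p ran from 8.4e-06 for TAPBP to 2.4e-19 for TAP1. For TAPBP the log2 difference of LS513 from LS174T in 2D was -0.90 ± 0.15, beside a growth effect of 0.71 ± 0.15 in HCT116. LS513 held the most of 8 genes and LS174T the most TAPBP. HT29 2D was the lowest group for HLA-B, HLA-C, HLA-E, TAP1, NLRC5 and PSMB9, HCT116 2D for B2M and PSMB8, and LS513 2D for TAPBP. In 2D, the log2 difference of HT29 from LS513 was -6.25 ± 0.16 for TAP1 (adjusted p = 1.5e-19) and -6.26 ± 0.21 for HLA-B (adjusted p = 1.1e-17). For HLA-E the same difference was -1.72 ± 0.14 and for B2M -1.81 ± 0.12, both smaller in size. Alignment to the reference alleles can lower the counts of HLA-B and HLA-C by line, and its part in the contrast with HLA-B was not tested. PSMB8 was 344-fold higher in LS513 than in HCT116 in 2D (log2 difference 8.43 ± 0.29, adjusted p = 1e-17), although PSMB9 in the same comparison was 5.28-fold higher.

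When the 8 groups were ordered by level, 41 of the 63 steps between neighbours passed and 22 did not, where 21.4% of the same steps passed over all tested genes, each gene's groups being ordered by its own levels. For HLA-B the order was LS513, HCT116, LS174T and HT29, with 3D above 2D in each line. The 1 step that did not pass was that between LS513 3D and LS513 2D. HLA-C followed the same order of lines in 2D, but HCT116 3D at 765 ± 66.2 CPM stood beside LS513 3D at 798 ± 133 CPM and did not differ from it (adjusted p = 0.71). B2M in LS174T 3D (527 ± 112 CPM) and in HCT116 3D (519 ± 66.2 CPM) did not differ (adjusted p = 0.88), nor did HLA-E in LS174T 3D and HT29 3D (adjusted p = 0.97). For NLRC5 and PSMB8, unlike HLA-B and HLA-C, both LS174T groups stood above both HCT116 groups. For TAPBP, 6 of the 7 steps did not pass. The step that did, from LS513 3D to HT29 3D, had an adjusted p of 0.021.

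Per kilobase of the principal transcript, B2M was the most abundant of the 9 genes in 6 of the 8 groups, and HLA-C in HCT116. In HT29 2D, B2M stood at 261 CPM per kilobase, TAPBP at 41.7, HLA-C at 39.1, HLA-E at 31.0, HLA-B at 9.07, PSMB8 at 6.03, TAP1 at 0.827, PSMB9 at 0.0965 and NLRC5 at 0.0297. In LS513 2D, B2M stood at 918, HLA-B at 694, HLA-C at 413, PSMB8 at 171, HLA-E at 102, TAP1 at 61.6, TAPBP at 39.8, PSMB9 at 35.9 and NLRC5 at 12.9 CPM per kilobase. HLA-B thus ranked behind TAPBP in HT29 and second in LS513. The order of B2M and HLA-B depends on the length used: with the union of all annotated exons the ratio of B2M to HLA-B in LS513 2D was 0.463 in place of 1.32, and HLA-C stood above B2M in LS174T 2D (75.4 against 48.8).

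The summed heavy chains HLA-B, HLA-C and HLA-E kept a like ratio to B2M in each line across growth conditions, except in LS174T. Per kilobase the ratio was 2.09 ± 0.148 in HCT116 2D and 2.00 ± 0.0572 in HCT116 3D, and 1.32 ± 0.0220 and 1.25 ± 0.120 in LS513. In HT29 it was 0.303 ± 0.0131 and 0.326 ± 0.0327. In LS174T it was 0.840, 0.681 and 0.659 in 2D and 0.594, 0.596 and 0.554 in 3D, which did not overlap. These ratios were not tested.

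The immunoproteasome subunits were next set beside the constitutive subunits they replace. The ratio of PSMB9 to PSMB6 per kilobase in HCT116 was 0.0172, 0.0211 and 0.0242 in 2D and 0.106, 0.0966 and 0.0636 in 3D, a mean 4.27 times as high. In HT29 the mean ratio was 0.000655 in 2D and 0.00481 in 3D. The ratio of PSMB8 to PSMB5 was 0.0531 ± 0.0171 in HT29 2D and 0.128 ± 0.0172 in HT29 3D, and it was 0.00207 ± 0.000388 and 0.00518 ± 0.00167 in HCT116. In LS513, PSMB8 was about as abundant as PSMB5 per kilobase of the principal transcript, at a ratio of 1.11 ± 0.0448 in 2D and 1.09 ± 0.0310 in 3D. That rank depends on the length used, here 1124 bases for PSMB8 and 1294 for PSMB5. The union of annotated exons holds 2997 and 1765 bases. By it PSMB8 stood below PSMB5 in LS513 2D, where their means were 193 and 200 CPM. PSMB10, which replaces PSMB7, had the ratio 0.124 ± 0.00479 in HT29 2D and 0.197 ± 0.0198 in HT29 3D, and in LS513 and LS174T its growth conditions overlapped. PSMB10 shares 34.8% of its exonic bases with AC040162.1 on its own strand, and the effect of this on its counts was not tested. The constitutive subunits PSMB5, PSMB6 and PSMB7 themselves moved little: PSMB7 was called higher in HT29 (log2 fold change 0.31, adjusted p = 0.044) and LS174T (0.39, adjusted p = 0.027), and no other call was made in any line.

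**Figure D3:**
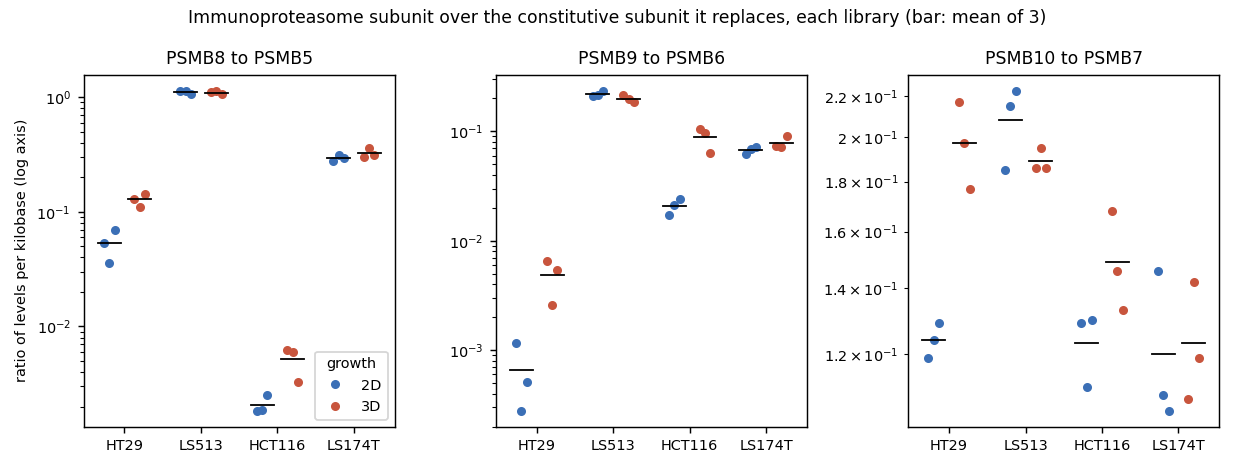
Ratio of each immunoproteasome subunit to the constitutive subunit it replaces, from levels per kilobase (log axis, a different range in each panel), in each library, with a bar at the mean of 3. The 3D points lie above the 2D points in HT29 and HCT116 in all 3 panels, and the LS513 points overlap.

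Other genes of the pathway were counted from fixed lists. Among 5 other class I heavy chain genes and pseudogenes, 5 were called higher in HCT116, 2 in LS513, 1 in LS174T and 1 in HT29, and none was lower. Over all tested genes 16.8%, 13.7%, 13.1% and 21.1% were called higher in these lines, so 1 of 5 in HT29 was near that share. HLA-F, a non-classical chain, had the largest change of this list in HCT116, where its mean was 6.10 CPM in 2D and 26.6 CPM in 3D (log2 fold change 2.13 ± 0.20, adjusted p = 5.3e-08).

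The 14 other peptide loading and trimming genes were counted in the same way. In HCT116, 3 were called higher and 2 lower, in HT29 1 and 7, and in LS513 and LS174T 0 and 3 each, with medians of 0.07, -0.37, -0.16 and -0.18. Over all tested genes, 16.8% were higher and 12.3% lower in HCT116, and 21.1% and 19.6% in HT29. The shares were 13.7% and 9.90% in LS513, and 13.1% and 9.15% in LS174T. TAPBPL, the tapasin-related peptide editor, rose in HT29 from a mean of 0.917 CPM to 3.87 CPM (log2 fold change 2.08 ± 0.25, adjusted p = 1.1e-06), where TAPBP itself had not passed. ERAP1, the aminopeptidase that trims peptides in the endoplasmic reticulum, was higher in HCT116 (log2 fold change 0.57, adjusted p = 0.00094) and lower in LS513 (-0.39, adjusted p = 0.015). TPP2 and IDE, cytosolic peptidases, were lower in all 4 lines. The proteasome activator subunits PSME1 and PSME2 and the subunit PSMB10 were called higher in HT29 and HCT116 and not in LS513 or LS174T. POMP, the proteasome assembly factor, was lower in HT29 (log2 fold change -0.52) and HCT116 (-0.37).

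Of 15 partners and regulators of class I transcription, 5 were called higher and 6 lower in HCT116, 3 and 5 in HT29, 2 and 3 in LS513 and 1 and 2 in LS174T. The shares over all tested genes are those given with the peptide loading genes. IRF1, a factor that binds interferon response elements, was called higher in HCT116 (20.4 to 38.9 CPM, log2 fold change 0.93 ± 0.13, adjusted p = 1.1e-05) and in no other line. RFX5, the DNA-binding RFX subunit, was called higher in HT29 (log2 fold change 0.62, adjusted p = 0.00062) and HCT116 (0.58, adjusted p = 0.0016), and its partner RFXANK in all 4 lines. RFXAP, the remaining RFX subunit, was called lower in HCT116 (-0.93, adjusted p = 0.0026) and LS513 (-0.75, adjusted p = 0.011), and was -0.27 in HT29 (adjusted p = 0.36) and -0.22 in LS174T (adjusted p = 0.45). Of the NF-Y and CREB/ATF genes, NFYA was called lower in HT29 (-0.52, adjusted p = 0.011) and HCT116 (-0.47, adjusted p = 0.024). CREB1 was too (-0.44, adjusted p = 0.026, and -0.41, adjusted p = 0.047). NFYB was called lower in LS513 (adjusted p = 0.011) and HCT116 (adjusted p = 0.039), and NFYC and ATF1 in no line. EZH2, a histone methyltransferase that can silence class I genes, was lower in HT29 (-0.73, adjusted p = 6e-07), HCT116 (-0.55, adjusted p = 3.2e-05) and LS513 (-0.24, adjusted p = 0.039).

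Class II genes, which present peptides taken up from outside the cell, were counted for contrast. Of 12 listed, 10 were tested, and 7 were called higher in HCT116, 3 in HT29 and 1 each in LS513 and LS174T, with none lower. Over all tested genes 16.8%, 21.1%, 13.7% and 13.1% were called higher in these lines. HLA-DRA, HLA-DRB1, HLA-DPA1, HLA-DPB1, HLA-DQB1 and HLA-DOA passed the filter on low counts through HCT116. All of them but HLA-DPA1 are among the genes called higher in HCT116. Their group means were at most 0.0115 CPM in HT29, at most 0.0704 CPM in LS513 and at most 0.289 CPM in LS174T. Calls for them were hardly possible there, so the counts do not compare the lines. HLA-DMA, which edits class II peptides, was higher in all 4 lines, its mean in HT29 being 1.72 CPM in 2D and 5.95 CPM in 3D. CIITA, the class II counterpart of NLRC5, was not tested because of its low counts and was at most 0.304 CPM in any group mean.

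**Figure D4:**
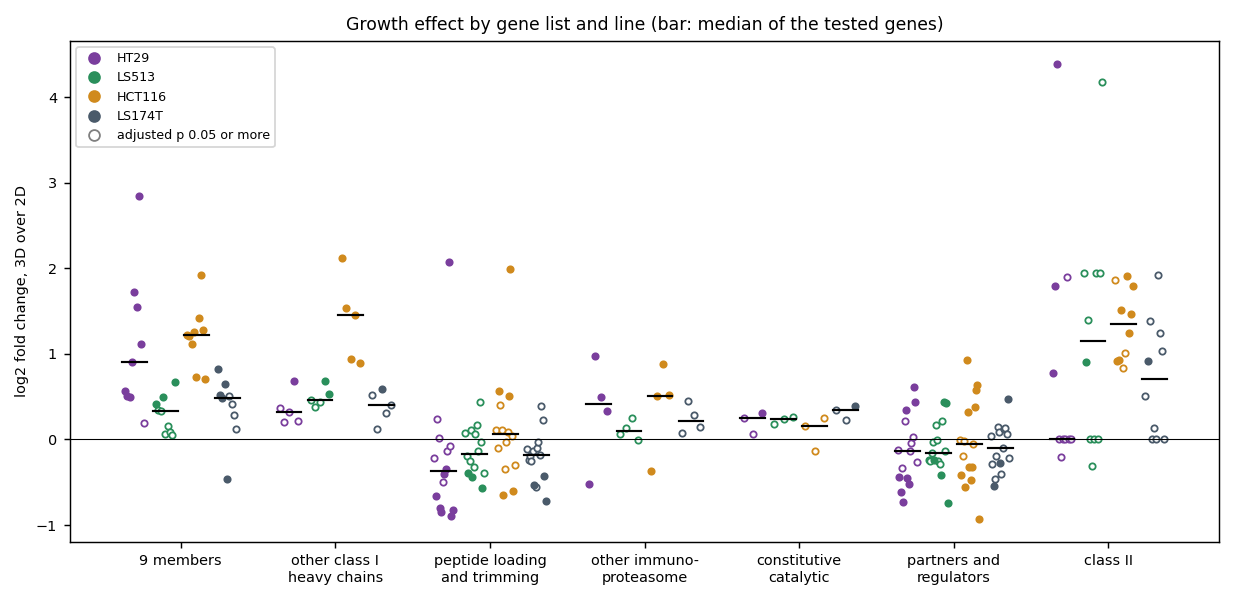
Log2 fold change of 3D over 2D for the tested genes of each list (columns) in 4 lines (colours), with a bar at the median; open points have an adjusted p of 0.05 or more. The medians of the 9 genes run from 0.33 in LS513 to 1.22 in HCT116, and those of the peptide loading and trimming genes from -0.37 in HT29 to 0.07 in HCT116.

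Leukocytes express class I and class II genes at high levels, so 10 leukocyte markers were checked. CD3E and NKG7 were at 0 in every library and PTPRC, the pan-leukocyte marker, was at most 0.0229 CPM in any group mean. The summed level of the list was 10.6 to 14.6 CPM in HCT116 2D and 37.7 to 51.1 CPM in HCT116 3D, and 12.2 to 15.9 and 24.5 to 33.4 CPM in HT29. In LS513 it was 18.1 to 20.6 and 62.1 to 92.4 CPM, and in LS174T 2.36 to 4.01 and 5.41 to 7.26 CPM. CD68, a lysosomal protein gene that is not confined to leukocytes, was called higher in all 4 lines and made up much of the sum, going from 10.9 to 41.3 CPM in HCT116. CD14 was also called higher in HT29 (6.11 to 12.6 CPM), and ITGAX in LS513 and HCT116. The summed epithelial list was 3574 to 4613 CPM in HCT116 2D and 5476 to 6055 CPM in HCT116 3D. In LS513 it was 11348 to 11595 and 14967 to 17481 CPM. The growth conditions overlapped in HT29 (15401 to 18360 and 16856 to 17270 CPM) and in LS174T (3625 to 5045 and 4768 to 7194 CPM). KRT20 was called higher in all 4 lines, while KRT18 was called lower in HT29 (log2 fold change -0.41, adjusted p = 0.026). The part of CD68, CD14, ITGAX and of the epithelial genes in the results was not tested.

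Likeness between genes was measured as the root mean square difference of their 8 centred group means on the log2 scale. HLA-E and B2M were the closest pair of the 9 at 0.289, followed by TAP1 and PSMB9, which share the region between their starts, at 0.477. NLRC5 lay 0.754 from PSMB9 and 0.900 from TAP1, and PSMB8 was 2.42 or more from each of the others. Outside the 9 genes, the closest to their median profile were APLF at 0.377, PARM1 at 0.378, GSTM4 at 0.389, RGS16 at 0.425 and SPATA12 at 0.430. The profile over 8 groups is set mainly by the differences between lines, and the points share libraries.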

How the data were processed

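RNA sequencing was done on 24 libraries of HT29, LS513, HCT116 and LS174T grown in 2D or 3D. Raw counts of reads per gene, without normalization, were deposited by the authors for every technical replicate. Reads were poly(A) selected, strand specific and single, were trimmed with Trim Galore 0.4.1, aligned with STAR, freed of multi-mapped reads and counted with HTSeq 0.5.3. The submitters' processing notes name hg19, while the methods name an Ensembl annotation of GRCh38, so positions are those of GENCODE 29 on GRCh38. Reads of a line's own HLA alleles were aligned to the reference alleles, which can lower the counts of HLA-B and HLA-C by line. Of 75-base windows, 1.67% in HLA-E, 1.09% in TAPBP, 0.966% in HLA-C and 0.122% in TAP1 also occur in other genes, and none in the other members.

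The 8 technical replicates of a library were summed, with 7 for HT29 3D replicate 4, whose remaining one was not analysed here. Groups came from the sample labels. Library totals of 18723942 to 34277421 put the floor of 3 counts at 0.0875 to 0.16 CPM. There were no molecular identifiers, so intervals and floors cover only counting error.

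The analysis used edgeR 4.0.16 in R 4.3.3: filterByExpr, TMM scaling and the robust quasi-likelihood model with all 24 libraries in 8 groups, two-sided tests and Benjamini-Hochberg adjustment over 19387 genes. Pooled count ratios used the exact binomial interval of SciPy 1.17.1, and promoter windows came from RefSeq. Levels per kilobase used the median length of the best ranked principal transcripts, chosen after seeing the data. The test was checked on simulated data. The members and lists were chosen with earlier results of these data known. Named genes are the 9 members and, from 6 companion lists, the highest and lowest of a list in a line; the other companion genes were chosen after their values were seen. Certain companion genes are not reported here and were left out of the list counts. Alternatives were the size factors of DESeq2 1.42.0, its Wald test, a replicate block, no filter beyond 1 count in any library, a fit of the 6 libraries of a line, leaving out technical replicate d, a log2 fold change over 1, and leaving out each library.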

Additional observations from a re-analysis of the deposited data

Results flagged for a closer look

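The growth effect differed between the 4 lines for 8 of the 9 genes by the omnibus test of the difference itself (edgeR), where 17.1% of all tested genes did. The count fell to 5 when HCT116 2D replicate 1, HCT116 2D replicate 2 or HCT116 3D replicate 1 was left out. The adjusted p was 0.037 for HLA-B, 0.021 for HLA-C, 0.02 for HLA-E, 0.0046 for B2M, 2.4e-05 for TAP1, 0.00016 for NLRC5, 0.0031 for PSMB8 and 3e-05 for PSMB9. For HLA-B, HLA-C, HLA-E, B2M and TAP1 the estimate was above 0 in all 4 lines and highest in HCT116, TAP1 in LS513 being 0.05 (adjusted p = 0.85). For PSMB8 and PSMB9 it was also above 0 in all 4 lines, with the highest estimate in HT29. The difference between HT29 and HCT116 did not pass for PSMB8 (adjusted p = 0.98) or PSMB9 (adjusted p = 0.46). The PSMB9 estimate in HT29 rests on 4, 1 and 1 counts in 2D. Of the 9 genes, B2M alone differed between HT29 and HCT116 (adjusted p = 0.012). For NLRC5 the level was higher in 3D in HT29 and HCT116 and lower in LS174T.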

How the results depend on the processing

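No log2 fold change of the 9 genes changed sign under any alternative run. Size factors of DESeq2, its Wald test and leaving out technical replicate d left every count of called genes within 1.5 times the reported one, and DESeq2's size factors moved the median of all genes by at most 0.037. With all genes of at least 1 count, 5 genes were called higher in LS513. With only the 6 libraries of the line, 2 were called higher in LS174T. With a replicate block, 5 were called higher in HT29, where HLA-B (adjusted p = 0.2), HLA-C (0.073) and NLRC5 (0.073) were lost, and 5 differed in growth effect between lines; HLA-B in LS174T was lost too (0.069). The labels give the numbers no shared origin, and of 11 pairs with the same number, 0 had deviations correlated over 0.1 (from -0.146 to 0.094), so the numbers were not taken as pairing. With a log2 fold change over 1 in size, 4 remained higher in HT29, 0 in LS513, 0 in LS174T, and 0 lower in LS174T. With 1 library left out, the genes called higher numbered 7 to 8 in HT29, 1 to 4 in LS513 (1 without LS513 3D replicate 2), 9 to 9 in HCT116 and 2 to 6 in LS174T (2 without 2D replicate 2, 2D replicate 3 or 3D replicate 2). Those called lower numbered 0 to 1 in LS174T, and those whose effect differed between lines 5 to 9. Over single genes and lines, 10 calls were gained and 15 lost among the fits with 1 library left out, and 5 were gained and 6 lost in the other fits, not counting the limit on the log2 fold change given above. Counting all identifiers of a symbol gave no other value, since each gene had 1. PSMB9 and NLRC5 in HT29 and PSMB8 in HCT116 are limited by depth.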
